A study of Mus musculus with 6 samples.

Results

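Spermatogonial stem cell genes were followed across 6 mouse testis libraries: 10 genes of glial cell line-derived neurotrophic factor (GDNF) signalling and of undifferentiated spermatogonia, namely Gdnf, Gfra1, Ret, Etv5, Zbtb16, Id4, Nanos2, Nanos3, Lin28a and Sall4. They were selected by gene symbol, and all 10 were found among the 23253 genes listed in any library. Whole testes of C57BL/6 mice aged 8 months were the source, and polyadenylated RNA was sequenced. The label control is carried by 3 libraries and the label L3mbtl2 cKO, a conditional knockout of a Polycomb-group gene, by the other 3. Neither the deleter strain, nor the cells in which deletion took place, nor the alleles that the controls carry are given in the sources used here. Nothing says that libraries of a group came from separate mice, so p-values measure the spread between these libraries only. All members were described by level, and 9 of 10, all but Nanos2, passed the filter on low counts and were tested.

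Spermatogonial stem cells are the few germ cells on the basement membrane of the seminiferous tubule that both renew themselves and supply sperm production. Sertoli cells and peritubular myoid cells secrete GDNF, which binds the co-receptor GFRA1 and signals through the receptor tyrosine kinase RET on undifferentiated spermatogonia. The transcription factors ETV5, ZBTB16, ID4 and SALL4 and the RNA-binding proteins NANOS2, NANOS3 and LIN28A mark these cells or act in them. In whole-testis RNA, fewer cells of a type and less RNA per cell cannot be told apart.

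The upstream sequences of 4 members are shown because 3 of them (Gdnf, Etv5 and Lin28a) were lower without overlap under the cKO label and Id4 was not. Each is the 250 bases before a RefSeq start site of GRCm38.p6, written 5′ to 3′ with CpG dinucleotides in capitals.
Gdnf, chr15:7809798-7810047, plus strand: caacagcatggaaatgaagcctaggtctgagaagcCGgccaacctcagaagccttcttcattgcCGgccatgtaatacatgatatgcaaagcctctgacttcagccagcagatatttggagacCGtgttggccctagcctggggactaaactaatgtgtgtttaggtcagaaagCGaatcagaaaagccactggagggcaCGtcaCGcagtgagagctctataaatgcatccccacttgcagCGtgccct
Etv5, chr16:22439571-22439820, minus strand: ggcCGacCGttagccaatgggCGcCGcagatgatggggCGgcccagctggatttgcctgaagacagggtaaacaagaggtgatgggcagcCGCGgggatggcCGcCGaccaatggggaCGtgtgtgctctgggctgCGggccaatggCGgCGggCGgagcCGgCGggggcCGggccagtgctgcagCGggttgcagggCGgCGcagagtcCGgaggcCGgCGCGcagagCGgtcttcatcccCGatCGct
Lin28a, chr4:134018817-134019066, minus strand: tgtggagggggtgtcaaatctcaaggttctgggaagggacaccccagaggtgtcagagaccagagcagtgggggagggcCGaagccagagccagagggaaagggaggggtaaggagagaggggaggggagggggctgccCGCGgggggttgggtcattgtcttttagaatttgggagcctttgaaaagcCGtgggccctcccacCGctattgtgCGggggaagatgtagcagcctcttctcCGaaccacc
Id4, chr13:48260866-48261115, plus strand: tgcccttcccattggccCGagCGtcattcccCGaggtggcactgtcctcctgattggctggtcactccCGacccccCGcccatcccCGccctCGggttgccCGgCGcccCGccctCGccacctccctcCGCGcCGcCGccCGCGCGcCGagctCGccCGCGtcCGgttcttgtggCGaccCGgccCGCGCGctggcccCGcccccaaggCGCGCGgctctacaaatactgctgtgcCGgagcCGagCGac
The windows of Id4 and Etv5 held 35 and 27 CpG dinucleotides. Those of Gdnf and Lin28a held 7 each, beside a median of 6 over all 32851 windows of that length. Of the 10 members, 7 (all but Ret, Zbtb16 and Sall4) had a window in the table (9 windows, since Gdnf and Etv5 have a pair of start sites each). The other window of Gdnf, not printed here, held 14 CpG dinucleotides, and that of Etv5 held 18. The E-box CACGTG, a palindrome, and the E2F-type motif TTCCCGC, searched on both strands, are letters that subunits of the L3MBTL2-containing complex PRC1.6 are known to bind. They were found in 0 of the 9 member windows, against 6.02% and 3.82% of all windows. No match says only that these letters are not in these windows.

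Before the results, the targeted gene was read in every library. L3mbtl2 (mm10 chromosome 15, 81663889 to 81688315) stood at 658, 705 and 673 expected counts under the control label and at 1030, 1105 and 1031 under the cKO label. It was therefore higher in the libraries labelled cKO (log2 fold change 0.67, SE 0.10; edgeR adjusted p = 0.166), opposite to a knockout, and the deposited file names carry the opposite genotype from the sample titles. An adjusted p of 0.166 was the lowest of any gene in this fit and was shared by many genes, Gdnf, Etv5 and Zbtb16 among them. The unadjusted edgeR p was 0.00018 for L3mbtl2, against 0.0088, 0.018 and 0.021 for those members. The listed transcript length of L3mbtl2 differed too, at 2652, 2659 and 2838 bases under the control label and 3491, 3489 and 3498 under the cKO label. Per length the difference was smaller, at 14.2 ± 0.660 against 16.3 ± 0.663 FPKM (SD, n = 3 each), a difference of 0.19 on log2(FPKM + 1). Groups below follow the titles, each library is named by its label, and every direction would turn if the labels were exchanged. Library totals ran from 17689205 to 18822050 expected counts. The Sertoli list (16 of 16 genes listed, none at 0 in any library) summed to 2351, 1585 and 4055 CPM (counts divided by library size) after TMM, edgeR's trimmed-mean scaling of library sizes, in the libraries labelled control 1, 2 and 3. It summed to 1274 to 1343 in those labelled cKO. The Leydig list (10 of 10 listed, none at 0) summed to 1742 to 7776 against 1291 to 1367. Clu and Cst12 led the Sertoli list, at 929.6 ± 489 and 201 ± 99.2 FPKM against 399.8 ± 9.26 and 93.4 ± 3.28 (SD, n = 3 each); Insl3 and Ptgds led the Leydig list, at 3840.3 ± 3122 and 744 ± 453 against 1022 ± 79.8 and 238 ± 37.8. Spermatid markers (10 of 10 listed) ran the other way, from 10252 to 14805 against 15824 to 17229 CPM. These marker levels accompany every comparison below, and their part in the results was not tested.

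No member passed the test. With edgeR's quasi-likelihood test and Benjamini-Hochberg adjustment over all 18269 genes, 0 of 9 members were called, beside 0% of all genes. At an unadjusted p of 0.05, 5 members were lower in the libraries labelled cKO (Gdnf, Etv5, Zbtb16, Lin28a and Ret) and 0 higher, where 18.8% of all genes were lower and 8.85% higher. Groups did not overlap for 5 members (Gdnf, Etv5, Zbtb16, Lin28a and Sall4), all lower under the cKO label; over all genes this was so for 19.8% lower and 18% higher. DESeq2 called 0 of the 7 members to which it gave an adjusted p, against 9.24% of genes lower and 0.558% higher. When the library labelled control replicate 2 was left out, Gdnf, Etv5 and Zbtb16 were called lower by edgeR, beside 20.7% of genes lower and 11% higher. The median log2 fold change was -0.60 over the 9 tested members and -0.0048 over all genes tested, with 7 members negative and 2 positive.

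**Figure D1:**
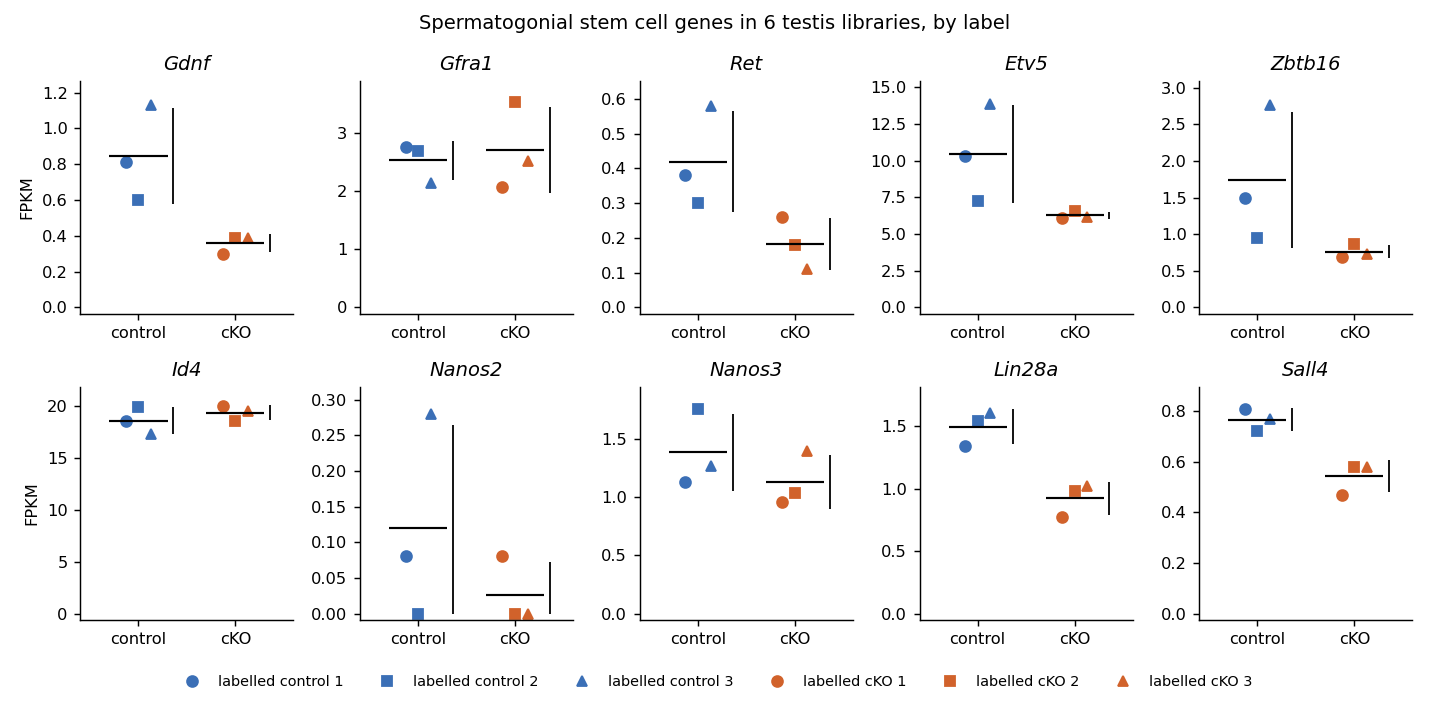
Deposited FPKM of each of the 10 members in the 6 testis libraries, grouped by label. Points are libraries (marker shape gives the replicate number), horizontal bars are means and vertical bars are ± SD (n = 3). Gdnf, Etv5, Zbtb16, Ret, Lin28a and Sall4 show no overlap on this scale, whereas Id4 lies between 17.3 and 19.95 FPKM throughout. The share of all genes without overlap was not taken on the FPKM scale.

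Per length, the members covered a wide range of levels. Id4 was the most abundant at 18.95 FPKM (mean of 6 libraries), followed by Etv5 at 8.38 and Gfra1 at 2.62, and the ranges of these did not overlap with each other. Below them by mean, Nanos3 (1.26), Zbtb16 (1.25), Lin28a (1.21), Sall4 (0.655), Gdnf (0.603) and Ret (0.302) formed a series in which every neighbouring pair had overlapping ranges. Zbtb16 reached 2.76 FPKM in the library labelled control 3, within the Gfra1 range of 2.08 to 3.53. Nanos2 was last at 0.0733 FPKM. Id4 stood at percentile 80.3 of all listed genes by mean FPKM, Gdnf at 27.8 and Ret at 21.4, so ligand and receptor were read from few counts.

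Gdnf (Entrez 14573, mm10 chromosome 15, 7810048 to 7837580), the ligand, was lower in each library labelled cKO than in any labelled control. Its expected counts were 62, 43 and 84 under the control label (replicates 1, 2 and 3) and 25, 31 and 30 under the cKO label, or 0.81, 0.60 and 1.13 against 0.30, 0.39 and 0.39 FPKM. The library labelled control 3 was highest and control 2 lowest of its group, and the groups did not overlap. The TMM-scaled level under the cKO label was 46.8% of that under the control label (log2 fold change -1.09, SE 0.31; edgeR adjusted p = 0.166, range over alternatives 0.0185 to 0.377). The two-sided p was 0.1 by exact permutation, the lowest value possible with 3 libraries against 3. The log2 fold change was -0.84 without the library labelled control 3 and -1.27 without control 2.

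The difference in Gdnf was of the size of the difference in the Sertoli markers. Per 1000 CPM of summed Sertoli markers, Gdnf stood at 1.40, 1.49 and 1.11 CPM under the control label and at 1.06, 1.27 and 1.31 under the cKO label. Mean ratios were 1.33 ± 0.200 against 1.21 ± 0.135 (SD, n = 3 per label). The groups overlapped, with the library labelled control 3 the lowest of its group in place of the highest. The log2 difference of this ratio was -0.13, less than the spread between libraries (SD 0.20), and it was -0.068 relative to Clu alone and -0.11 relative to Sox9 alone. Clu made up most of the Sertoli sum (1376 of 2351 CPM in the library labelled control 1, 738 of 1307 in cKO 1). The ratio to Clu is therefore not a separate check. Peritubular myoid markers (8 of 8 listed, none at 0), from the other cells that make GDNF, summed to 432 to 555 CPM against 421 to 446. In that list 7 of 8 genes were negative (median log2 fold change -0.58), and the sum was led by the positive one, the smooth muscle actin gene Actg2, at 188, 228 and 165 against 251, 241 and 239 CPM.

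**Figure D2:**
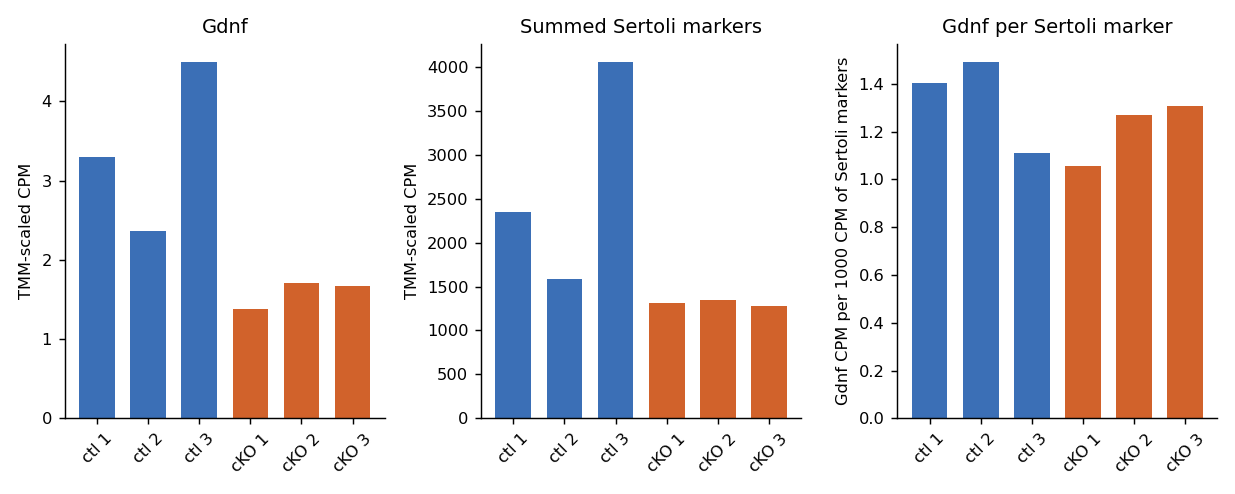
Bars give, for each of the 6 libraries by label, the TMM-scaled CPM of Gdnf (left), the summed CPM of 16 Sertoli markers (middle) and Gdnf CPM per 1000 CPM of those markers (right), all from 0. Gdnf and the Sertoli markers are highest in the library labelled control 3, and the ratio lies between 1.06 and 1.49 in all libraries.

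Of the receptor pair, Ret had a lower mean under the cKO label and Gfra1 did not. Gfra1 (Entrez 14585, mm10 chromosome 19, 58235581 to 58455946), the GPI-anchored co-receptor that binds GDNF, had 172, 174 and 140 expected counts under the control label and 134, 231 and 161 under the cKO label (2.76, 2.69 and 2.14 against 2.08, 3.53 and 2.52 FPKM). Both the lowest and the highest library were labelled cKO, and the groups overlapped (log2 fold change 0.15, SE 0.24; edgeR adjusted p = 0.682). The sign turned to -0.094 without the library labelled cKO 2. Ret (Entrez 19713, mm10 chromosome 6, 118151748 to 118197744), the signalling kinase, had 46, 36 and 68 counts against 36, 25 and 14. On the TMM-scaled scale the libraries labelled control 2 and cKO 1 were nearly level, at 1.98 and 1.99 CPM, so the groups overlapped. The log2 fold change was -0.96 (SE 0.41; edgeR adjusted p = 0.179, range over alternatives 0.0766 to 0.389).

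Ret also differed in the transcript length that the deposited tables give, a mean weighted over the 2 transcripts listed for it. That length was 6794, 6611 and 6660 bases under the control label and 7341, 7341 and 7066 under the cKO label. The groups did not overlap, as was so, with the longer transcripts under the cKO label, for 6.34% of the 8947 tested genes whose length varied (and with the shorter ones for 7.87%). By FPKM the Ret groups did not overlap (0.38, 0.30 and 0.58 against 0.26, 0.18 and 0.11), nor did they with counts scaled by library totals, and the length rested on as few as 14 counts. Gfra1 lengths overlapped, at 3508 to 3727 against 3463 to 3532 bases, and those of Etv5, Zbtb16, Id4 and Lin28a, with 1 transcript listed each, did not vary.

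Etv5 and Zbtb16 had the same order among the libraries labelled control as Gdnf, an order shared by Ret and by the summed somatic marker lists. Among the libraries labelled cKO, Gdnf, Etv5 and Zbtb16 varied by less than counting alone gives, so no order shared by them can be read there. Ret varied by more than counting there, by 43.9% against 20%. A link to Gdnf was not tested. Etv5 (Entrez 104156, mm10 chromosome 16, 22381313 to 22439570), an ETS-family transcription factor induced by GDNF in cultured stem cells and also made by Sertoli cells, stood at 10.31, 7.23 and 13.9 FPKM under the control label and at 6.10, 6.54 and 6.19 under the cKO label. The groups did not overlap, but the library labelled control 2, at 27.4 CPM, lay close to the highest labelled cKO, at 25.7. The log2 fold change was -0.63 (SE 0.21; edgeR adjusted p = 0.166, range over alternatives 0.00990 to 0.377) and -0.39 without the library labelled control 3. Zbtb16 (Entrez 235320, mm10 chromosome 9, 48651797 to 48836225), which encodes the zinc-finger repressor PLZF needed for stem cell maintenance, stood at 1.5, 0.95 and 2.76 FPKM against 0.69, 0.86 and 0.73. Its highest library was again labelled control 3, and control 2, at 4.79 CPM, lay just above the highest labelled cKO, at 4.52. The log2 fold change of Zbtb16 was -1.08 (SE 0.37; edgeR adjusted p = 0.166, range over alternatives 0.0147 to 0.377). It was -0.59 without the library labelled control 3.

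Id4 stood apart from Etv5 and Zbtb16. Id4 (Entrez 15904, mm10 chromosome 13, 48261116 to 48266028), an inhibitor of basic helix-loop-helix factors whose expression marks the stem cells, had 536, 581 and 495 expected counts under the control label and 605, 560 and 585 under the cKO label. Its lowest library was labelled control 3, where Gdnf, Etv5 and Zbtb16 were highest. The groups overlapped (28.5, 31.97 and 26.5 against 33.4, 30.8 and 32.5 CPM), with a log2 fold change of 0.15 (SE 0.12; edgeR adjusted p = 0.388). Id4 is also made in spermatocytes, so its level in whole testis is not that of stem cells alone.

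Lin28a and Sall4 were lower under the cKO label in a more even way. Lin28a (Entrez 83557, mm10 chromosome 4, 134003330 to 134019196), an RNA-binding protein that blocks let-7 maturation, had 83, 96 and 98 counts against 50, 63 and 65 (1.34, 1.54 and 1.61 against 0.77, 0.98 and 1.02 FPKM). All libraries labelled control were above all labelled cKO. The level under the cKO label was 65.9% of that under the control label (log2 fold change -0.60, SE 0.23; edgeR adjusted p = 0.167, range over alternatives 0.125 to 0.379). Sall4 (Entrez 99377, mm10 chromosome 2, 168748332 to 168767201), a zinc-finger factor of undifferentiated spermatogonia, had 74, 65 and 67 counts against 45, 52 and 50. Its groups did not overlap either, and the level was 73.2% (log2 fold change -0.45, SE 0.22; edgeR adjusted p = 0.210, range over alternatives 0.166 to 0.439). The two-sided p was 0.1 for both genes by exact permutation. Leaving out a library moved the log2 fold change of Lin28a within -0.68 to -0.49 and that of Sall4 within -0.49 to -0.39.

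The NANOS genes were near the limit of detection. Nanos3 (Entrez 244551, mm10 chromosome 8, 84173733 to 84176552), a translational repressor of early germ cells, had 12, 19 and 14 counts against 11, 12 and 16, and the groups overlapped (log2 fold change -0.17, SE 0.36; edgeR adjusted p = 0.758). The sign turned to 0.069 without the library labelled control 2. Nanos2 (Entrez 378430, mm10 chromosome 7, 18987524 to 18988962), the repressor that keeps spermatogonia undifferentiated, had 2 and 7 counts in control replicates 1 and 3, by label, and 2 in cKO replicate 1. It was not listed in the other 3 libraries and was set to 0 there. Counting error alone gives the 7 counts a 95% exact Poisson interval of 2.81 to 14.4, and 2 counts an interval of 0.242 to 7.22. The groups overlapped, and Nanos2 was left out of the main test by the filter on low counts, so no difference between the labels is claimed.

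**Figure D3:**
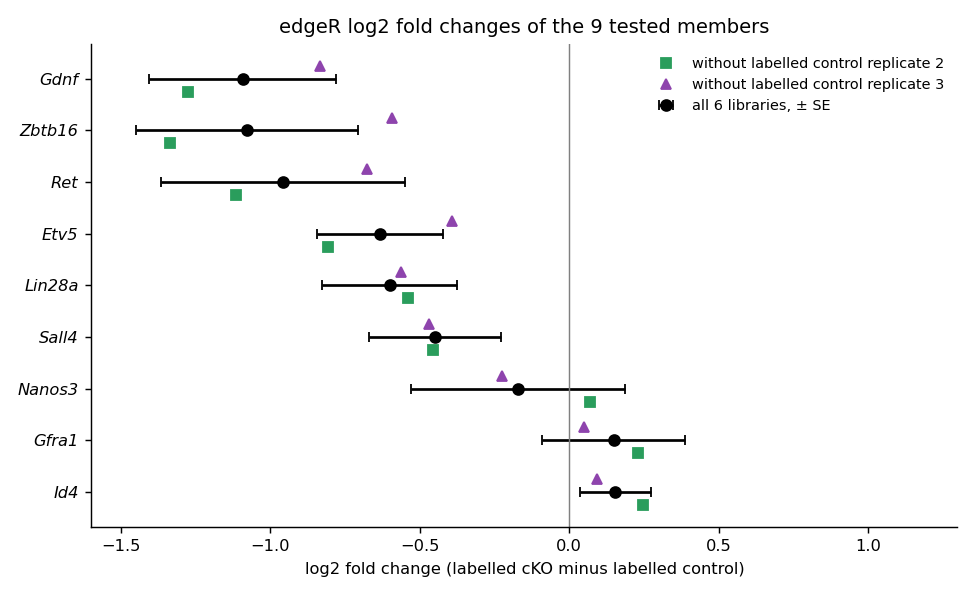
Log2 fold changes (labelled cKO minus labelled control) of the 9 tested members in edgeR. Black points with bars are the values ± SE over all 6 libraries, and coloured points leave out the library labelled control 2 or 3. Gdnf, Zbtb16, Ret and Etv5 move toward 0 without control 3, to -0.84, -0.59, -0.68 and -0.39, while Lin28a and Sall4 are at -0.56 and -0.47.

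The spread among the libraries labelled control divided the members. For Gdnf, Ret, Etv5 and Zbtb16 the coefficient of variation of the TMM-scaled level was 31.6, 31.9, 29.8 and 51.7%, where counting alone gives 12.6, 14.1, 3.74 and 7.97% at their mean counts. That spread was above counting error for all 4, and for each the order was control 3, then control 1, then control 2. This was the order of every summed somatic list: Sertoli, Leydig, peritubular myoid, macrophage, endothelial, and nerve and Schwann cell markers. The spermatocyte and spermatid sums had the reverse order, so the order is not particular to these members or to any one cell type. Lin28a, Sall4 and Nanos3 varied by 9.89, 5.49 and 25.9% there, against 10.4, 12.1 and 25.8% from counting, so their spread was at or near that of counting. Gfra1 and Id4 varied by 12.5 and 9.51% against 7.86 and 4.31%, with the library labelled control 3 lowest. Among the libraries labelled cKO, Gdnf, Etv5, Zbtb16 and Id4 varied by 11.2, 3.48, 11.4 and 4.08%, each below its counting value of 18.7, 4.73, 11.8 and 4.14%. Gfra1 and Ret varied more there, by 28.2 and 43.9% against 7.55 and 20%.

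**Figure D4:**
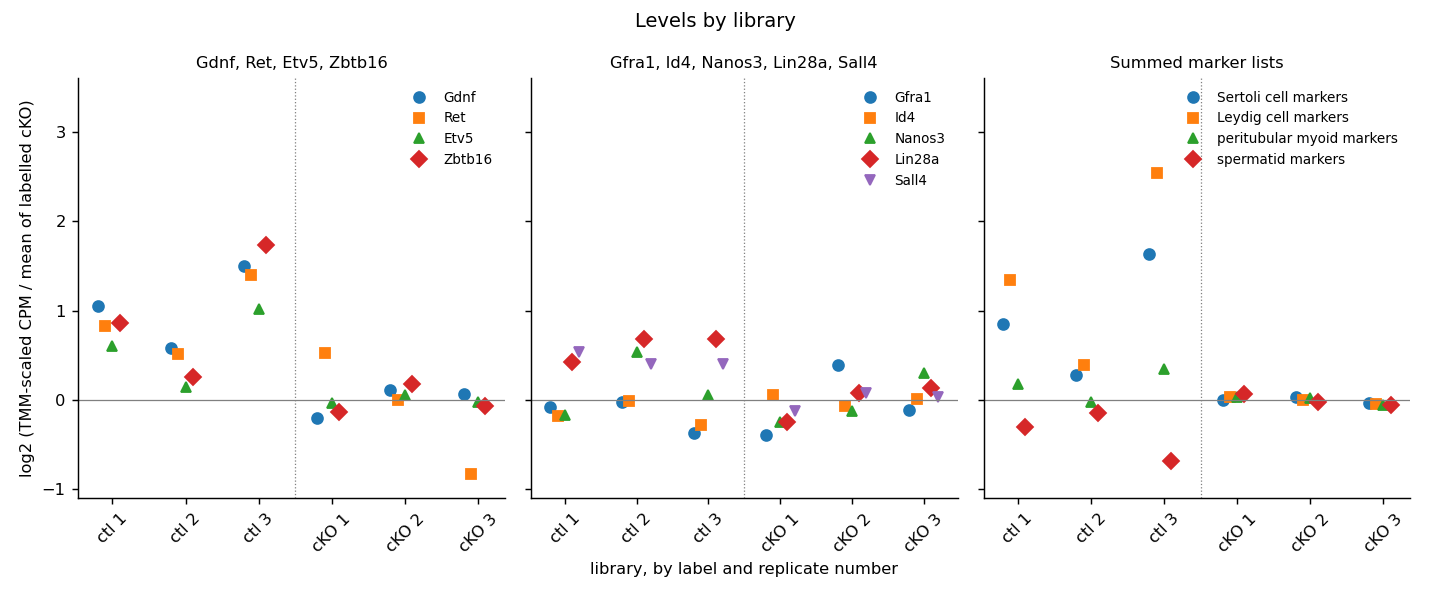
Log2 ratio of each library's TMM-scaled CPM to the mean of the libraries labelled cKO, for 9 members (left and middle) and for 4 summed marker lists (right). Gdnf, Ret, Etv5 and Zbtb16 peak in the library labelled control 3, as do the Sertoli, Leydig and peritubular myoid lists, and the spermatid list is lowest there. Lin28a and Sall4 lie above 0 in all 3 libraries labelled control.

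Further genes of the GDNF family and its adaptors had fold changes of both signs with a median below 0, and edgeR called none over all 6 libraries. Of 19 genes in this list, 18 were listed in a library and 15 tested: the median log2 fold change was -0.36 (-0.18 without control 3), and 9 were negative and 6 positive. Groups did not overlap for 6 lower and 3 higher genes, beside 19.8% and 18% of all genes. The Src-family kinases Fyn and Src, which act below RET, stood at 19.6 ± 7.16 and 5.603 ± 2.07 FPKM under the control label and at 10.2 ± 0.823 and 3.05 ± 0.255 under the cKO label (SD, n = 3 per label). Gfra2, the co-receptor for neurturin, lay the other way, at 24.6 ± 5.09 against 29.1 ± 1.93 FPKM, and was more abundant per length than Gfra1. The small GTPase gene Hras stood at 14.8 ± 1.70 against 15.3 ± 1.70. DESeq2 called Fyn and the adaptor gene Grb2 lower (adjusted p = 0.0224 and 0.0394), beside 9.24% of all genes called lower. With the library labelled control 2 left out edgeR called 6 genes lower and 1 higher, beside 20.7% and 11% of all genes.

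Among 32 other genes of undifferentiated spermatogonia, 23 were tested and edgeR called 0. The median log2 fold change was -0.41 (-0.64 without the library labelled cKO 1 and likewise without cKO 2, and -0.30 without control 3), with 18 negative and 5 positive, and groups did not overlap for 8 lower and 1 higher gene, beside 19.8% and 18% of all genes. Integrin alpha 6 (Itga6), a surface marker used to enrich stem cells, stood at 6.72 ± 3.55 against 2.41 ± 0.110 FPKM, and the syndecan gene Sdc4 at 27.7 ± 13.1 against 12.5 ± 0.786. The Polycomb gene Bmi1, the most abundant of the list, stood at 44.9 ± 2.498 against 46.9 ± 2.41 FPKM. DESeq2 called Foxo1, Itga6, Adgra3, Sdc4 and Tspan8 lower, beside 9.24% of all genes. With control 2 left out, edgeR called 7 genes of the list lower and 1 higher, beside 20.7% and 11% of all genes. Several genes of this list are made by somatic cells of the testis too, so it does not report on spermatogonia alone.

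Niche factors and their receptors had negative fold changes in every gene tested, and none passed the edgeR test over all 6 libraries. Of 19 genes, 13 were tested, all 13 were negative and the median log2 fold change was -1.26 (-0.72 without the library labelled control 3). Groups did not overlap for 9 of them, all lower under the cKO label, beside 19.8% of all genes. Cxcl12, a chemokine that Sertoli cells make and that acts on spermatogonia, stood at 25.2 ± 20.1 against 5.82 ± 0.549 FPKM (log2 fold change -1.84, SE 0.50, and -1.06 without control 3). Wnt6 stood at 19.0 ± 10.7 against 7.503 ± 0.461 and the growth factor receptor gene Igf1r at 4.597 ± 2.48 against 1.53 ± 0.171. DESeq2 called 9 genes lower: Fgfr2, Csf1, Csf1r, Cxcl12, Kitl, Wnt5a, Wnt6, Igf1 and Igf1r, beside 9.24% of all genes. With control 2 left out, edgeR called 12 lower, beside 20.7% of all genes. Macrophage markers (9 of 9 listed, none at 0), among which is Csf1r, summed to 99.0 to 348 CPM against 87.1 to 99.1.

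Genes of differentiating spermatogonia, the next step of the lineage, also had a median below 0. Of 16 genes, 15 were tested, with a median log2 fold change of -0.40 (-0.21 without control 3), 11 negative and 4 positive, and edgeR called 0. Groups did not overlap for 7 lower genes and 1 higher gene, beside 19.8% and 18% of all genes. Kit, the stem cell factor receptor, which Leydig cells also make, stood at 12.8 ± 8.32 against 3.95 ± 0.980 FPKM (log2 fold change -1.59, SE 0.42, and -0.95 without control 3). The transcription factor gene Dmrt1, also expressed in Sertoli cells, stood at 12.5 ± 2.17 against 7.55 ± 0.373, and Uchl1 at 46.3 ± 8.33 against 32.2 ± 2.45. Dmrtb1, which acts at the entry to meiosis, lay higher under the cKO label, at 267.6 ± 49.5 against 321 ± 21.9 FPKM. DESeq2 called Kit and Dmrt1 lower, beside 9.24% of all genes, and edgeR with control 2 left out called 5 genes lower, beside 20.7%. The difference between this list and the stem cell genes was not tested. Which of its genes, Uchl1 included, are particular to this stage was not tested either.

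**Figure D5:**
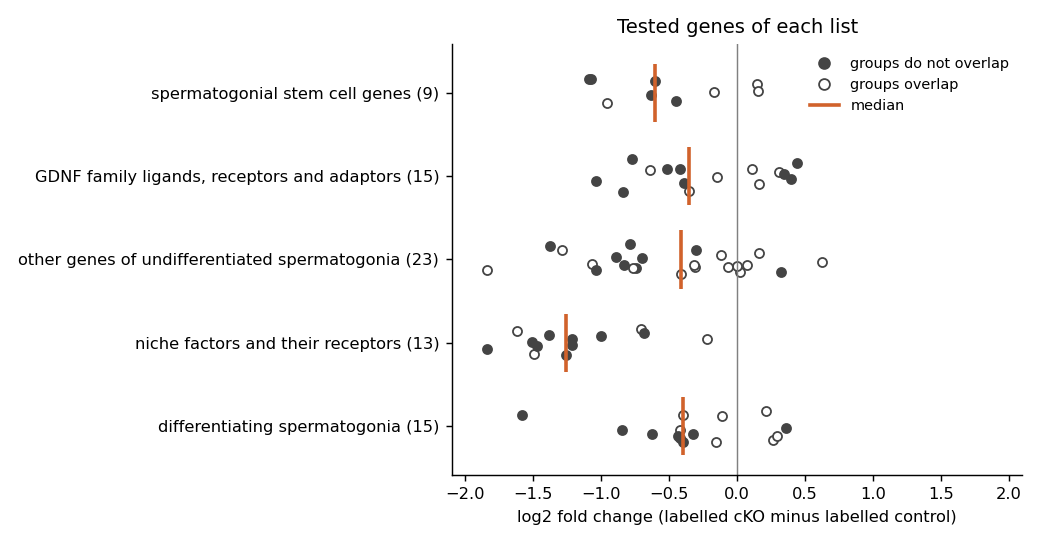
Log2 fold changes (labelled cKO minus labelled control, edgeR) of the tested genes of 5 lists, with the number tested in parentheses; vertical position within a list is random. Filled points are genes whose groups do not overlap and orange bars are medians, which lie at -0.60, -0.36, -0.41, -1.26 and -0.40 from top to bottom.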

How the data were processed

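Total RNA of 6 testes samples was DNase-treated and oligo(dT)-selected, per the labels. The authors' tables hold expected counts, not normalized, FPKM scaled by the authors, and a transcript length in bases. The submitters' processing notes name bcl2fastq 2.16, HISAT2 2.0.4, Bowtie2 2.2.5, RSEM, DESeq2 and mm10, with no role or order. The lowest FPKM listed is 0.01, and a missing gene was set to 0. Whether libraries were stranded is not stated in the labels, so antisense overlap is uncertain.

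Expected counts were rounded and tested with edgeR 4.0.16 (filterByExpr at its defaults, minimum count 10; TMM; quasi-likelihood F-test; Benjamini-Hochberg at 0.05; common biological variation 22.8%), and SE was taken from the fold change and its F. DESeq2 1.42.0 and limma 3.58.1 on log2(FPKM + 1) were alternatives. On simulated data edgeR recovered 51 of 100 genes changed 2-fold and 89 of 100 changed 4-fold. There, genes varied independently of each other, and the changed ones were drawn only from genes above a floor of mean count. These shares therefore do not give the power of the test in the real libraries. Exact permutation tests used log2(CPM + 0.5) over 20 splits. The members and lists were chosen with earlier results of these data known. The text names the members, L3mbtl2, and for 4 lists the 2 genes of smallest p and the 2 most abundant, plus the 2 most abundant Sertoli and Leydig markers; others were chosen after their values were seen. Endothelial markers (7 listed) summed to 51.2 to 82.8 CPM against 48.6 to 55.3, and spermatocyte markers to 3411 to 4813 against 4904 to 5114. Libraries of a group differed by more than sampling noise (chi-square per degree of freedom 6.02 to 81.9), so none was merged. Coordinates come from a RefSeq table of GRCm38.p6, the primary assembly that mm10 names, in which all 10 members were matched.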

Additional observations from a re-analysis of the deposited data

How the results depend on the processing

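Over 15 alternatives, the log2 fold changes of 27 genes (the 9 tested members and those that the naming rule takes, L3mbtl2 apart) kept their direction and side of the threshold in 359 of 389 values. In 28 values, over 17 genes, a gene newly passed, in DESeq2 or without the library labelled control replicate 2. The direction turned in 2: Gfra1 to -0.094 without the library labelled cKO replicate 2 (range -0.094 to 0.31 when a library was left out), and Nanos3 to 0.069 without the library labelled control replicate 2 (range -0.35 to 0.069). The count of genes called was 0 in the main test, 1511 in DESeq2, 1 in limma on log2(FPKM + 1) and on log2(FPKM + 0.1), 2 on log2(FPKM + 1) with no filter, and 0 to 5900 when a library was left out, the highest without the library labelled control replicate 2. Members called ran from 0 to 3 when a library was left out, 3 again without that library, and were 0 under the other alternatives. L3mbtl2 passed in DESeq2 (log2 fold change 0.69) and without the library labelled control replicate 2; leaving out a library gave 0.64 to 0.73, and it was 0.19 on log2(FPKM + 1), with or without the filter, and 0.20 on log2(FPKM + 0.1). The members' median was -0.16 on log2(FPKM + 1) and -0.26 on log2(FPKM + 0.1), each over 5 members, -0.23 with no FPKM filter and 0.12 with the filter of 5 CPM in 3 libraries, where only 3 members (Etv5, Gfra1 and Id4) were left; it ran from -0.65 to -0.47 when a library was left out. Library totals alone shifted the median of all genes to -0.10, and members should be read relative to that shift. The number of members without overlap was 5 under TMM and DESeq2 size factors and 6 by library totals or by deposited FPKM (the latter chosen after seeing the data), Ret being added. Shares of all genes without overlap were taken under TMM only, at 19.8% lower and 18% higher. The counts under the other scalings have no such share beside them and are not read as a result about the members. The replicate number as a block called 0 genes and 0 members; numbers shared between labels did not pair the libraries (correlations of deviations 0.0428, -0.00665 and -0.0388). Below about 20 counts, as for Nanos2, Nanos3 and part of Ret, depth limits what can be seen.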
